A study of Saccharomyces cerevisiae S288C with 18 samples.

Results

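The 10 genes described here take copper into the yeast cell and pass it on: the copper-sensing transcription factor MAC1 (YMR021C), the copper transporters CTR1 (YPR124W), CTR2 (YHR175W) and CTR3 (YLR411W), the metalloreductases FRE1 (YLR214W) and FRE7 (YOL152W), the cytosolic copper chaperone ATX1 (YNL259C), the copper-pumping ATPase CCC2 (YDR270W), and the mitochondrial copper proteins SCO1 (YBR037C) and PIC2 (YER053C). They were chosen by name for their role, as 10 of the 6692 genes in the count table, and all 10 passed the filter on low counts. Under amphotericin B (AMB), an antifungal drug that binds ergosterol, CTR2, SCO1 and PIC2 were higher than in the matched control, beside 18.7% of all genes tested. Under AMB with lactoferrin (AMB-LF), CTR1, FRE1 and FRE7 were lower than in a separate matched control, beside 15.1% of all genes tested. With the labels of these control groups exchanged, CTR1, FRE1 and FRE7 were called lower under AMB instead. CTR2, SCO1 and PIC2 were then called higher under AMB-LF. The AMB and AMB-LF cultures did not differ from each other in any of the 10 genes by the test used, beside 0.33% of all genes tested. Between the untreated control groups of these treatments, 6 of the 10 differed, all higher in the control for AMB-LF. Of all genes tested, 15.2% were higher and 16.6% lower there.

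RNA-seq was performed on Saccharomyces cerevisiae S288C grown in RPMI-1640 medium at 30 °C, with 3 biological replicates in each of 6 groups. The treatments were AMB at 0.03 µg/mL for 60 minutes, AMB-LF at 0.03 µg/mL AMB and 2 µg/mL LF for 50 minutes, and bovine lactoferrin (LF), an iron-binding milk protein, at 2 µg/mL for 50 minutes; each had an untreated control labelled with the same time. AMB and AMB-LF cultures were harvested at the same degree of growth inhibition, and these groups with their controls (12 libraries, 6799569 to 9696467 counts each) were sequenced in 2 lanes of a HiSeq 2000, whereas LF and its control (6 libraries, 23925944 to 30172836 counts) were sequenced in 1 lane of a NextSeq 500. The question was how copper uptake and delivery responded to each treatment relative to its own control.

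Several features of the series bear on every value below. All 3 libraries of the control for AMB-LF were in lane 1, whereas the control for AMB had 1 library in lane 1 and 2 in lane 2, so that for the control groups the lane was partly confounded with the group and was a term of the fit. The labels and the growth protocol of the series give the durations of these 2 controls in opposite ways, and one supplementary plot of the study names the control groups the other way round. A supplementary sample list of the study gives the same times as the labels. The labels were followed here, and values with the other assignment are given below. The S288C reference strain is of mating type α, yet the α-cell genes MFALPHA1, MFALPHA2 and STE3 had 1 to 13, 62 to 246 and 40 to 221 counts per library, whereas the a-cell genes STE2, MFA1 and MFA2 had 5267 to 27854, 1726 to 11681 and 2950 to 13108. In all 18 libraries the markers thus went against the mating type of the reference strain. In bulk RNA, fewer cells expressing a gene and less RNA per cell cannot be told apart.

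Copper enters yeast as Cu(I), which the reductases Fre1p and Fre7p provide at the cell surface for the high affinity transporters Ctr1p and Ctr3p, while Ctr2p releases copper stored in the vacuole. When copper is scarce, Mac1p binds copper-response elements and activates CTR1, CTR3, FRE1 and FRE7. Inside the cell, Atx1p hands copper to Ccc2p in the Golgi, where it is loaded into the iron oxidase Fet3p, so that high affinity iron uptake depends on copper. Pic2p carries copper into the mitochondrial matrix, and Sco1p inserts it into cytochrome c oxidase. CCC2 and ATX1 belong to the iron regulon of Aft1p.

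The sequences upstream of CTR1 and FRE1 are shown because these genes had the largest decreases under AMB-LF. Bases were read from the R64 genome on the strand of the gene and are numbered back from the coding start, with -1 the base before it. Capitals mark matches to the Mac1 copper-response element TTTGCTCA on either strand. The CTR1 stretch is chrXVI:785858-785917 (+ strand, bases -350 to -291) and the FRE1 stretch is chrXII:568267-568326 (+ strand, bases -300 to -241).
CTR1: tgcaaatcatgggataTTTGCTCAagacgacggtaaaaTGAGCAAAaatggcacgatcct
FRE1: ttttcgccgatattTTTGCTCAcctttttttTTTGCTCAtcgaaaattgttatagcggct
Each stretch held 2 matches. In CTR1 they began at -334 on the coding strand and at -312 on the other strand, and in FRE1 they began at -286 and -269, both on the coding strand. Of the 6027 windows of 500 bases before a coding start, 154 (2.56%) held the element at least once and 3 (0.0498%) held it 2 or more times, CTR1 and FRE1 among them. The other 8 genes had no match in these 500 bases. In a window from 250 bases before to 50 bases after the start, 93 of 6027 genes (1.54%) and none of the 10 had the element. The shorter core TTTGCTC, which is part of that element, was in 326 windows of this size (5.41%), FRE1 among them with a match at -96.

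CTR3 is shown for another reason. A Ty2 retrotransposon of 5959 bases (chrXII:941192-947150, + strand) is annotated in the reference genome 102 bases before its coding start, and the bases between them are chrXII:947151-947252 (+ strand). They had no match to either Mac1 motif. In the 500 bases on the far side of the Ty2, the core TTTGCTC had a match on each strand, starting at -123 and -77 from the end of the element. In many laboratory strains a Ty2 at this locus is known to keep CTR3 expression low.
CTR3: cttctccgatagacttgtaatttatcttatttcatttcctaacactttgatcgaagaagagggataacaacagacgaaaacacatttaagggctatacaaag

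For the Golgi branch, capitals mark the Aft1 core GCACCC, all matches here being on the other strand (GGGTGC as read on the coding strand). The CCC2 stretch is chrIV:1005375-1005454 (+ strand, bases -300 to -221) and the ATX1 stretch is chrXIV:157956-157995 (- strand, bases -130 to -91).
CCC2: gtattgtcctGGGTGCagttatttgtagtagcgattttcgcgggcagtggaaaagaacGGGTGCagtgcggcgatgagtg
ATX1: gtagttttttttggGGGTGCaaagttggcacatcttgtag
The CCC2 matches began at -290 and -242 and the ATX1 match at -116. The Aft1 core was in 458 of the 6027 windows of 500 bases (7.60%) and in 256 (4.25%) of those from 250 before to 50 after the start. CCC2 and ATX1 were the 2 of the 10 genes with a match in either kind of window. A match is a run of letters only, and binding was not measured in these libraries.

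**Figure D1:**
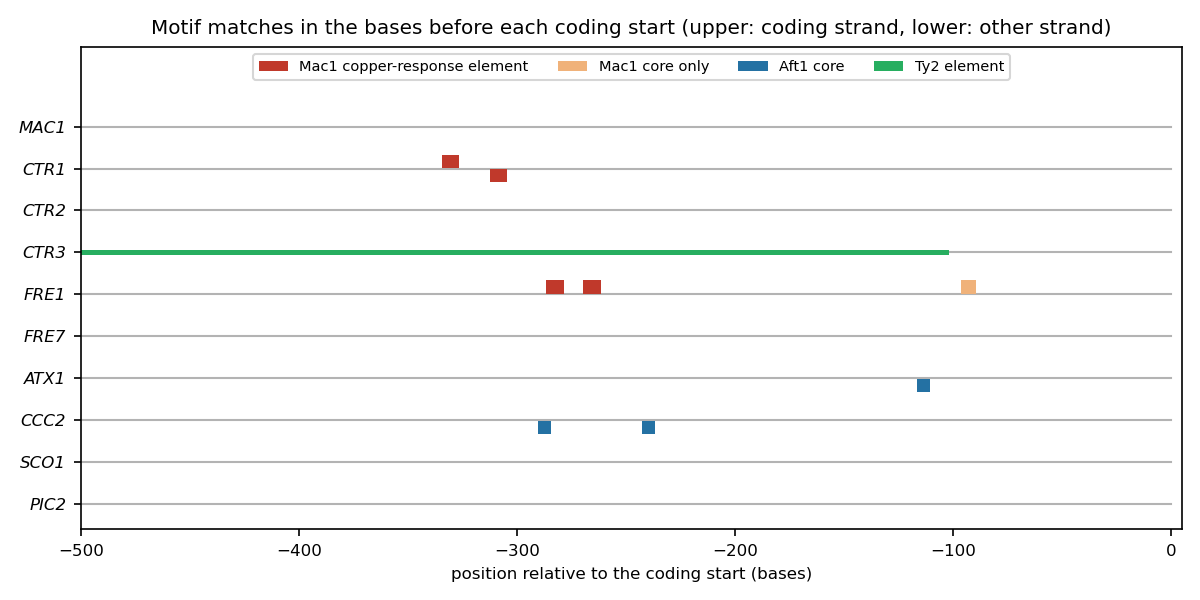
Matches to the Mac1 copper-response element (red), the shorter Mac1 core alone (orange) and the Aft1 core (blue) in the 500 bases before each coding start (horizontal axis, bases; 0 is the start), above each line for the coding strand and below it for the other. CTR1 and FRE1 each have 2 red marks between -334 and -262, CCC2 has 2 blue marks and ATX1 has 1, and the Ty2 element (green) reaches to 102 bases before CTR3.

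Each gene has 1 coding exon in the R64 annotation, and no stretch of 100 or 75 bases (the read lengths of the HiSeq and NextSeq libraries) within the 10 coding sequences occurred elsewhere in the genome. Levels between genes were compared as CPM per kilobase of coding sequence (FPKM). On that scale ATX1 and CTR2 were the most abundant of the 10 in every group, and CTR3 and FRE7 were the least abundant. In the control for AMB, ATX1 was at 768 ± 251 (SD, n = 3), CTR2 at 231 ± 6.46, PIC2 at 94.6 ± 18.4, SCO1 at 89.7 ± 3.95 and MAC1 at 40.9 ± 1.32. CTR1 (30.5 ± 3.37), CCC2 (28.7 ± 2.56) and FRE1 (24.8 ± 1.95) followed, then CTR3 (16.6 ± 2.16) and FRE7 (9.99 ± 1.02). PIC2 and SCO1 did not differ beyond their spread, and neither did CTR1 and CCC2. The coding sequences run from 222 bases in ATX1 (chrXIV:157644-157865, - strand) to 3015 in CCC2 (chrIV:1005675-1008689, + strand).

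MAC1 (chrXIII:317165-318418, - strand) encodes the copper sensor itself. Its level was 61.5, 55.8 and 54.4 CPM (counts scaled to the library total and edgeR's TMM factors) in the AMB libraries 1 to 3 and 51.4, 52.9 and 49.6 in their control. It was 46.6, 49.4 and 47.8 CPM in AMB-LF and 52.8, 49.9 and 51.0 CPM in the control for AMB-LF. All 3 AMB libraries were above all 3 of their controls, and all 3 AMB-LF libraries were below theirs, yet neither difference passed the test. The log2 fold change was 0.15 (SE 0.073) under AMB with an adjusted p of 0.127 (edgeR's quasi-likelihood test, Benjamini-Hochberg over all 5456 genes tested on the HiSeq) and -0.08 (SE 0.081) under AMB-LF with an adjusted p of 0.459. Over the 12 HiSeq libraries MAC1 had the narrowest range of the 10 genes, its highest library being 1.32 times its lowest.

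CTR1 (chrXVI:786208-787428, + strand) encodes the main high affinity copper transporter of the plasma membrane. It was at 27.1, 38.8 and 23.0 CPM in AMB and at 40.9, 38.1 and 32.8 CPM in the control for AMB. In AMB-LF it was at 22.9, 31.1 and 37.6 CPM, and in the control for AMB-LF at 101.9, 81.1 and 87.8 CPM. The control for AMB-LF stood apart, with each of its libraries at least 81.1 CPM where the other 9 libraries were at most 40.9. The decrease under AMB-LF was -1.53 on the log2 scale (SE 0.237, adjusted p = 0.000723), which leaves 0.346 of the control level. Under AMB the libraries overlapped those of the control and the log2 fold change was -0.35 (SE 0.214, adjusted p = 0.220). Without AMB-LF replicate 1, the lowest of its group, the change under AMB-LF was -1.001 (adjusted p = 0.0201). A fit to 1 lane leaves 1 group of each such comparison with a single library, which is assumed to vary like the other groups, so lane values are given here without a p as a description, and in lane 1 alone, where AMB-LF has that 1 library, the value was -1.98.

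FRE1 (chrXII:568567-570627, + strand), the main cell surface reductase for copper and iron, was at 48.8, 60.2 and 34.4 CPM in AMB and at 52.0, 54.6 and 46.7 CPM in its control. It was at 40.9, 56.0 and 54.5 CPM in AMB-LF and at 136.5, 85.0 and 114.0 CPM in the control for AMB-LF. As for CTR1, the untreated libraries of the AMB-LF comparison were the highest of the 12. The log2 fold change was -1.10 (SE 0.248, adjusted p = 0.00737) under AMB-LF and -0.13 (SE 0.226, adjusted p = 0.681) under AMB. The call under AMB-LF was lost without AMB-LF replicate 1 (-0.64, adjusted p = 0.184). Under AMB the value was 0.05 in lane 1 alone and -0.54 in lane 2 alone, where the 1 AMB library was the lowest of its group.

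FRE7 (chrXV:40748-42610, + strand), a reductase gene induced by copper scarcity, had the lowest level per length. It was at 14.5, 16.5 and 15.8 CPM in AMB against 19.3, 20.1 and 16.5 CPM in the control. In AMB-LF it was at 16.6, 14.4 and 17.5 CPM against 23.4, 26.1 and 21.3 CPM. The decrease was -0.52 (SE 0.139, adjusted p = 0.0161) under AMB-LF, where the groups did not overlap, and the value was -0.27 (SE 0.129, adjusted p = 0.127) under AMB. The call under AMB-LF was lost without AMB-LF replicate 1 (-0.50, adjusted p = 0.141).

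CTR3 (chrXII:947253-947978, + strand), the second high affinity transporter gene and the one downstream of the Ty2, had 56 to 128 counts per HiSeq library. It was at 10.4, 7.5 and 12.0 CPM in AMB against 13.6, 10.4 and 12.2 CPM in the control, and the groups overlapped. In AMB-LF it was at 9.3, 11.6 and 10.8 CPM against 12.4, 15.5 and 12.0 CPM, without overlap. Neither comparison passed the test (log2 fold changes -0.23, SE 0.189, adjusted p = 0.357, and -0.42, SE 0.206, adjusted p = 0.148).

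CTR2 (chrVIII:452872-453441, + strand) encodes the vacuolar copper transporter. It was at 154.7, 176.7 and 170.6 CPM in AMB and at 130.1, 129.5 and 136.1 CPM in the control, so that every AMB library was above every control library. In AMB-LF it was at 158.7, 173.8 and 176.9 CPM, close to AMB, but its control was at 152.5, 165.4 and 154.4 CPM. The log2 fold change was 0.37 (SE 0.067, adjusted p = 0.00167) under AMB and 0.06 (SE 0.074, adjusted p = 0.574) under AMB-LF. In single lanes the value under AMB was 0.33 (lane 1) and 0.38 (lane 2).

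SCO1 (chrII:310565-311452, - strand), which delivers copper to cytochrome c oxidase, was at 102.7, 121.0 and 106.3 CPM in AMB against 77.3, 77.9 and 83.7 CPM in the control. In AMB-LF it was at 108.3, 100.2 and 108.7 CPM against 110.8, 120.3 and 104.4 CPM. It rose by 0.46 (SE 0.082, adjusted p = 0.00155) under AMB, and its log2 fold change under AMB-LF was -0.07 (SE 0.089, adjusted p = 0.614). Under AMB it was 0.51 in the lane 1 libraries alone and 0.41 in the lane 2 libraries alone.

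PIC2 (chrV:258737-259639, - strand), the mitochondrial carrier for copper and phosphate, had the largest change under AMB. It was at 152.7, 153.7 and 142.4 CPM in AMB and at 78.0, 73.8 and 104.4 CPM in the control. The increase was 0.84 on the log2 scale (SE 0.134, adjusted p = 0.00074), or 1.80-fold, and the value was 0.95 in lane 1 alone, with 1 control library, and 0.69 in lane 2 alone, with 1 AMB library. In AMB-LF PIC2 was at 121.6, 147.2 and 135.0 CPM against 124.6, 150.2 and 117.2 CPM, with overlapping groups and a log2 fold change of -0.02 (SE 0.146, adjusted p = 0.919).

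ATX1, the chaperone that receives copper in the cytosol, varied widely between replicates. It was at 86.8, 142.8 and 111.0 CPM in AMB against 232.4, 155.3 and 124.0 CPM in the control, and at 155.7, 119.8 and 99.1 CPM in AMB-LF against 112.3, 233.7 and 144.7 CPM. Within each control group its highest library was well above the other 2, and the groups overlapped in both comparisons. The log2 fold change was -0.69 (SE 0.263, adjusted p = 0.0596) under AMB and -0.12 (SE 0.292, adjusted p = 0.797) under AMB-LF. Of 25 alternative settings for AMB, 6 called ATX1 lower, edgeR's likelihood ratio test among them. The study itself, from these libraries, lists ATX1 as lower under AMB and as not differentially expressed under AMB-LF.

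CCC2, the Golgi copper ATPase, was at 93.8, 108.1 and 97.6 CPM in AMB against 80.4, 84.1 and 95.2 CPM in the control, with a log2 fold change of 0.24 (SE 0.135, adjusted p = 0.178). In AMB-LF it was at 92.0, 101.4 and 112.0 CPM against 148.5, 99.0 and 123.7 CPM, with a log2 fold change of -0.36 (SE 0.148, adjusted p = 0.0914). The groups overlapped in both comparisons.

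**Figure D2:**
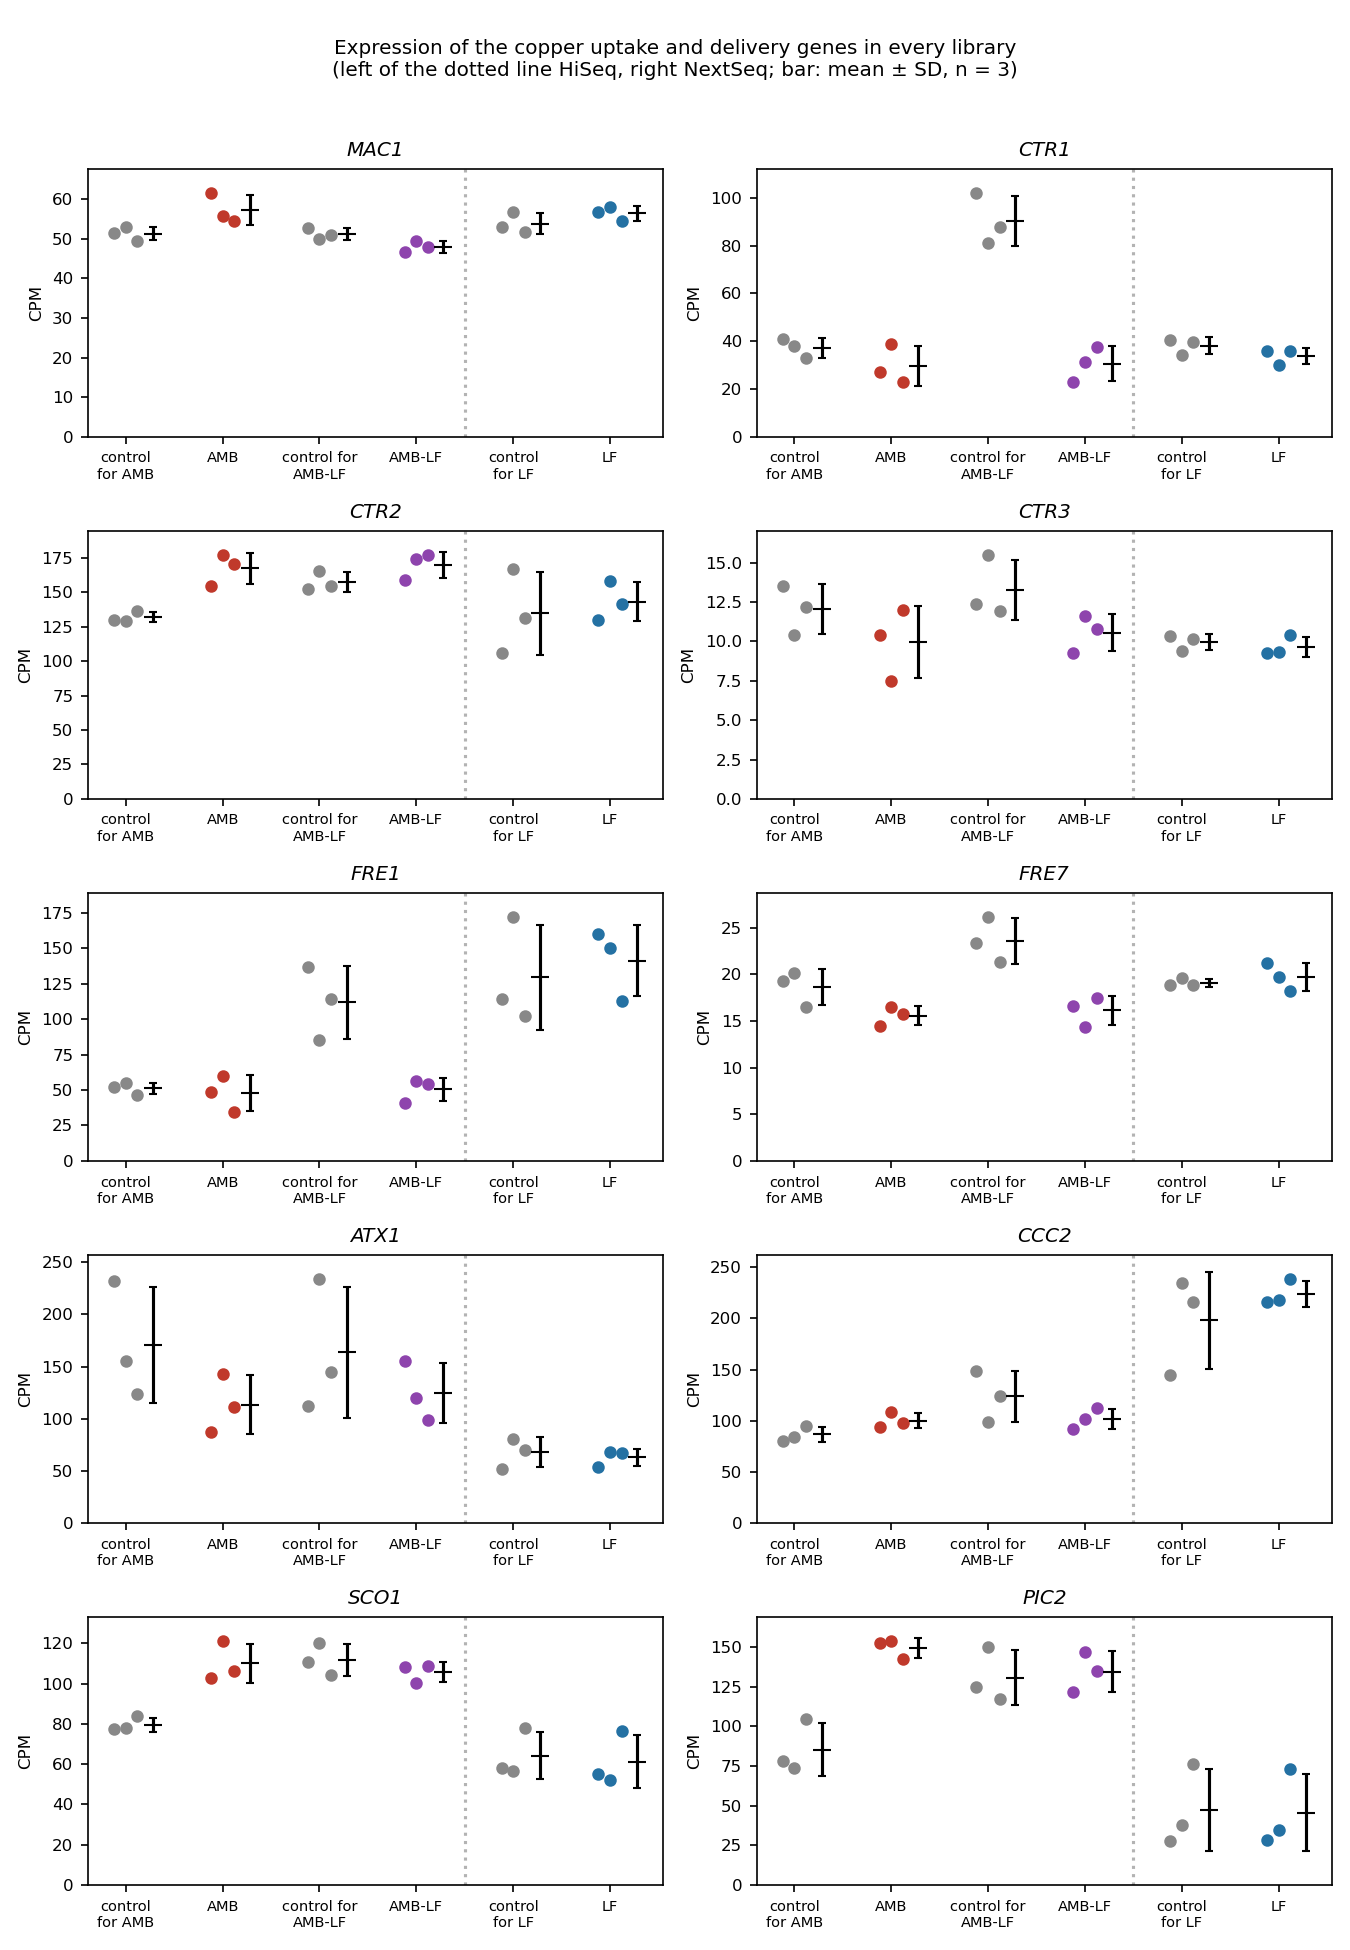
CPM (vertical axis, from 0) of each gene in each of the 18 libraries (points) with the mean ± SD of each group (n = 3); HiSeq groups are left of the dotted line and NextSeq groups right of it. The 3 libraries of the control for AMB-LF stand above all other HiSeq libraries for CTR1 (81.1 to 101.9 CPM) and FRE1 (85.0 to 136.5 CPM), and the control for AMB stands below the other HiSeq groups for SCO1 (77.3 to 83.7 CPM).

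Over the whole group, 3 of the 10 genes were higher and 0 lower under AMB, where 18.7% of all genes tested were called higher and 18.4% lower. The 3 are the genes that the study itself listed under copper homeostasis from these libraries, so their direction is not independent evidence. For 4 of the 10 (MAC1 and the 3 called) the groups did not overlap, against 53.7% of all genes. Under AMB-LF, 0 of the 10 were higher and 3 lower, beside 14.1% and 15.1% of all genes, and the groups did not overlap for 5 of the 10, against 50.8% of all genes. The median log2 fold change of the 10 was 0.01 under AMB (all genes -0.02) and -0.24 under AMB-LF (all genes -0.01). Scaling to library size alone moved the median of all genes under AMB-LF to -0.10, and CCC2 was then also called lower.

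**Figure D3:**
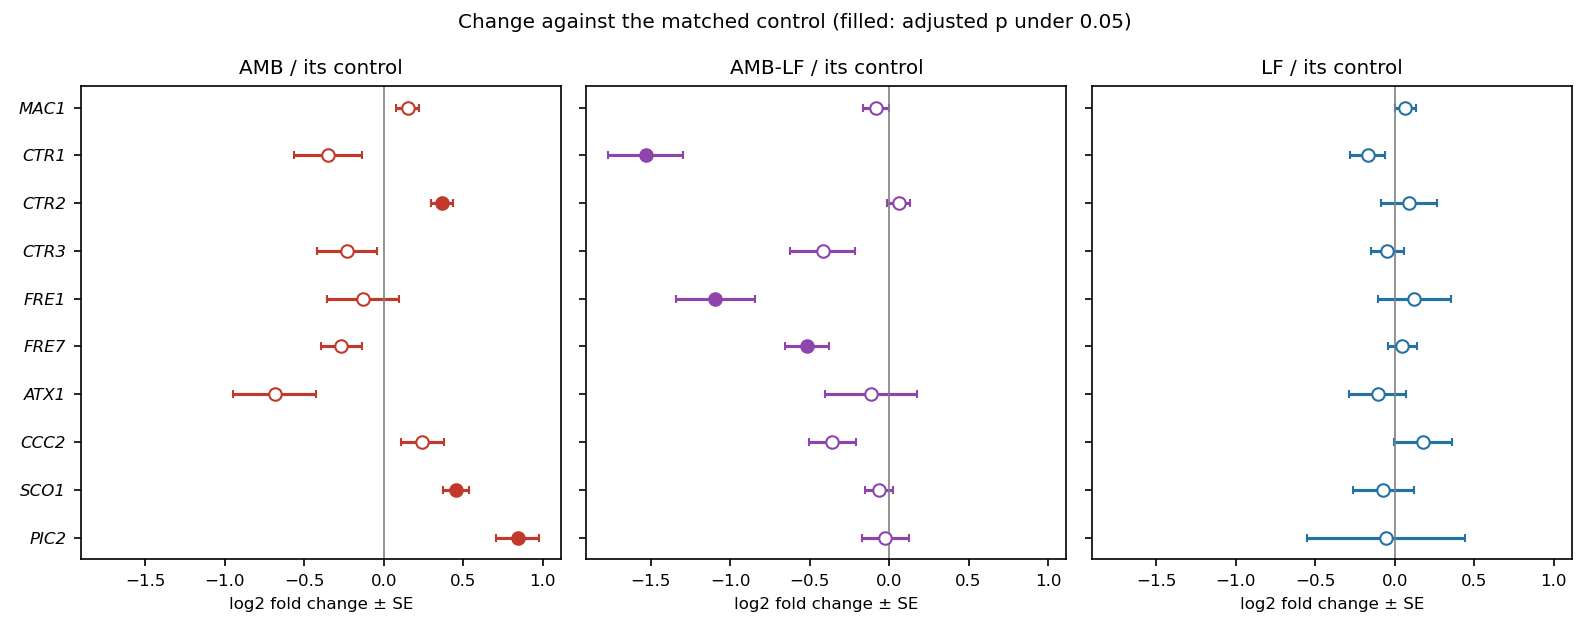
Log2 fold change (horizontal axis, ± SE) of each gene in AMB, AMB-LF and LF against the matched control; filled points have an adjusted p under 0.05 by edgeR's quasi-likelihood test. CTR2, SCO1 and PIC2 are filled under AMB (0.37, 0.46 and 0.84), CTR1, FRE1 and FRE7 under AMB-LF (-1.53, -1.10 and -0.52), and none under LF.

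The responses to AMB-LF and AMB were then compared directly, as the difference of the 2 log2 fold changes. CTR1 (-1.18, SE 0.345, adjusted p = 0.0379), PIC2 (-0.87, SE 0.215, adjusted p = 0.0239) and SCO1 (-0.52, SE 0.130, adjusted p = 0.0240) had a lower response to AMB-LF, 3 of the 10 beside 7.46% of all genes, and 0 of the 10 had a higher one, beside 10.1%. FRE1 (-0.97, SE 0.365, adjusted p = 0.0890), CCC2 (-0.60, SE 0.216, adjusted p = 0.0761) and CTR2 (-0.31, SE 0.106, adjusted p = 0.0667) had negative differences that did not pass. For FRE7 the difference was -0.25 (SE 0.202, adjusted p = 0.421), so its call under AMB-LF and not under AMB was no difference between the responses by this test. Without AMB-LF replicate 1 or without replicate 1 of the control for AMB, each the only library of its group in lane 1, 0 of the 10 passed. Calls over all genes are not given here for these fits. Without AMB-LF replicate 1 the differences were -0.55 for CTR1, -0.72 for PIC2 and -0.53 for SCO1. Without replicate 1 of the control for AMB they were -1.36, -0.78 and -0.44.

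A difference between responses can come from the treated cultures, from the controls, or from both, and these were compared too. AMB-LF against AMB, 0 of the 10 genes passed the test, beside 0.33% of all genes. The value was 0.06 (SE 0.222) for CTR1, 0.11 (SE 0.229) for FRE1, -0.19 (SE 0.132) for PIC2, -0.05 (SE 0.081) for SCO1 and -0.0047 (SE 0.066) for CTR2. MAC1 was the 1 gene of the 10 with an unadjusted p under 0.05 (0.00553), beside 386 of all 5456 genes tested. Its 3 AMB-LF libraries were all below its 3 AMB libraries, with a log2 fold change of -0.25 (SE 0.073) and an adjusted p of 0.264. The share of all genes without overlap in this comparison is not given here.

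Of the 10 genes, 6 were higher in the untreated cultures of the AMB-LF comparison than in those of the AMB comparison, beside 15.2% of all genes, and 0 were lower, beside 16.6%. CTR1 was 1.24 higher on the log2 scale (SE 0.227, adjusted p = 0.00249) and FRE1 1.08 higher (SE 0.243, adjusted p = 0.00626), both of them Mac1p targets of the cell surface. PIC2 was 0.68 higher (SE 0.149, adjusted p = 0.00546) and SCO1 0.47 higher (SE 0.091, adjusted p = 0.00292), the mitochondrial proteins. CCC2 was 0.59 higher (SE 0.149, adjusted p = 0.0114) and CTR2 0.30 higher (SE 0.074, adjusted p = 0.00929). Other genes named here as Mac1p targets did not all follow CTR1 and FRE1. CTR3 (0.22, adjusted p = 0.4345), FRE7 (0.31, adjusted p = 0.105) and IRC7 (-0.40, adjusted p = 0.208) did not pass, while the Mac1p-dependent REE1 was higher (0.58, adjusted p = 0.00832). The median of the 10 was 0.39, and that of all genes was 0.03. Among lane 1 libraries alone, where the control for AMB has 1 library, the values were 1.12 for CTR1, 1.08 for FRE1 and 0.72 for PIC2. The fit without that library called only CTR1 of the 10 (1.38, adjusted p = 0.0406). In that fit FRE1 was at 1.04, PIC2 at 0.61, CCC2 at 0.55, SCO1 at 0.41 and CTR2 at 0.34. Calls over all genes are not given here for it. The durations of the controls, their lanes and anything else that set these untreated cultures apart cannot be told apart.

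**Figure D4:**
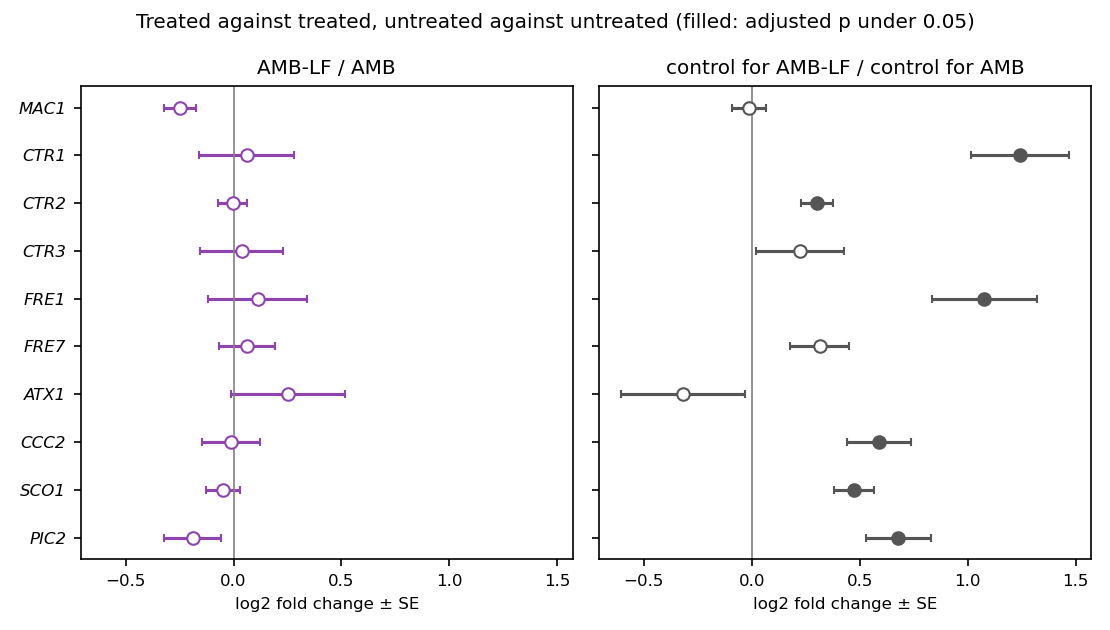
Log2 fold change (horizontal axis, ± SE) of each gene between the treated groups (AMB-LF over AMB, left) and between the untreated groups (control for AMB-LF over control for AMB, right); filled points have an adjusted p under 0.05. No point is filled on the left, and on the right CTR1, CTR2, FRE1, CCC2, SCO1 and PIC2 are filled, with CTR1 at 1.24 and FRE1 at 1.08.

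The calls under both treatments depended on the control group used. With the control labels exchanged, AMB gave CTR1 (-1.59, adjusted p = 0.000128), FRE1 (-1.21, adjusted p = 0.00128) and FRE7 (-0.58, adjusted p = 0.00436) as lower, and none of the 3 genes called with the labels as given. AMB-LF then gave CTR2 (0.36, adjusted p = 0.00169), SCO1 (0.41, adjusted p = 0.00268) and PIC2 (0.66, adjusted p = 0.00289) as higher. Of all 5456 genes tested, this exchange called 918 higher and 1010 lower under AMB, and 900 higher and 872 lower under AMB-LF. With all 6 untreated HiSeq libraries as 1 control, CTR1 (-1.06, adjusted p = 0.0455) and FRE7 (-0.43, adjusted p = 0.0314) were lower under AMB and 0 genes were called under AMB-LF, where CTR1 was at -0.76 (adjusted p = 0.202).

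LF alone changed none of the 10 genes by the test used (0 of 10), beside 0.0% of the 5445 genes tested on the NextSeq; 8 genes of all had an unadjusted p under 0.05, none of them among the 10. DESeq2 called 0 genes as well, with 20 at an unadjusted p under 0.05, and edgeR's likelihood ratio test called 0, with 1. The 3 LF libraries overlapped their 3 controls for all 10 genes, where 2.96% of all genes did not overlap. The log2 fold changes lay between -0.17 (CTR1, SE 0.111) and 0.18 (CCC2, SE 0.183), and every adjusted p was 0.9998. The same replicate numbers came from the same day, and for PIC2 and SCO1 the days differed more than LF from its control. This did not hold on every day for CCC2. Its replicate 1 was at 215.7 CPM in LF and 144.6 in the control, and its highest day mean was 1.26 times its lowest. PIC2 was at 28.5, 34.6 and 73.3 CPM in the LF libraries 1 to 3 and at 27.7, 37.9 and 76.3 CPM in the controls 1 to 3, and its mean over both groups was 2.66 times higher on the highest day than on the lowest. FRE1 was at 160.3, 150.2 and 112.8 CPM in LF and at 114.1, 171.8 and 102.4 CPM in the control, and SCO1 at 55.0, 52.2 and 76.3 CPM against 58.0, 56.8 and 77.9 CPM.

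With the replicate number as a block, the fit compared LF with its control within each day. Again 0 of the 10 passed after adjustment, beside 0.0% of all genes, and 1 of the 10 had an unadjusted p under 0.05, beside 7.68% of all genes. That gene was CTR1, at 35.9, 30.1 and 35.9 CPM in LF and 40.6, 34.1 and 39.8 CPM in the control, lower by 0.18, 0.18 and 0.15 on the log2 scale on the 3 days. Its log2 fold change was -0.17 (SE 0.051, adjusted p = 0.493). CCC2 was at 0.20 (SE 0.099, adjusted p = 0.679) and FRE1 at 0.14 (SE 0.099, adjusted p = 0.780), each higher on 2 of the 3 days. SCO1 was lower on all 3 days (log2 differences -0.077, -0.122 and -0.031) and MAC1 higher on all 3 (0.095, 0.036 and 0.073), neither with an unadjusted p under 0.05. The share of all genes with 1 direction on all 3 days is not given here. CTR2, ATX1, PIC2, CTR3, SCO1, FRE7 and MAC1 lay between -0.10 and 0.11 in this fit.

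**Figure D5:**
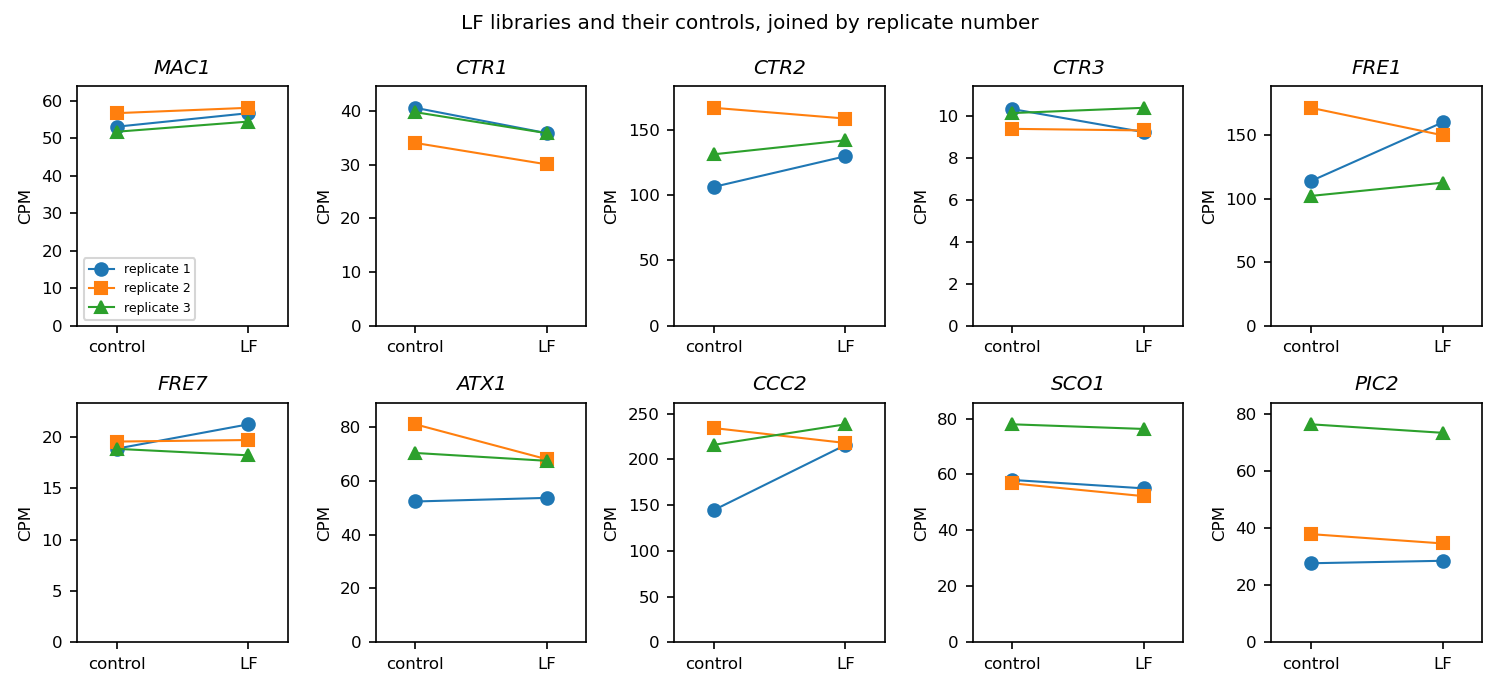
CPM (vertical axis, from 0) of each gene in the control and the LF library of each replicate number, joined by a line; n = 3 per group. The lines lie far apart for PIC2, whose replicate 3 is at 76.3 and 73.3 CPM where the others are at most 37.9, and all 3 lines fall for CTR1 (by 0.15 to 0.18 on the log2 scale) and for SCO1 and rise for MAC1.

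The NextSeq libraries had other levels of several genes, which were sequenced and prepared apart and are given side by side only. PIC2 ranged from 27.7 to 76.3 CPM on the NextSeq and from 73.8 to 153.7 on the HiSeq, ATX1 from 52.2 to 80.9 and from 86.8 to 233.7, and CCC2 from 144.6 to 238.3 and from 80.4 to 148.5. MAC1 lay between 46.6 and 61.5 CPM on both. CTR1 was at 30.1 to 40.6 CPM on the NextSeq, and on the HiSeq at 22.9 to 40.9 outside the control for AMB-LF. FRE1 was at 102.4 to 171.8 CPM on the NextSeq, above the 34.4 to 60.2 of those HiSeq libraries and overlapping the 85.0 to 136.5 of the control for AMB-LF.

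Other genes that handle copper were examined as 4 lists, whose counts are to be read beside the 18.7% of all genes called higher and 18.4% lower under AMB, and the 14.1% and 15.1% under AMB-LF. Of the genes that bring copper to cytochrome c oxidase in the mitochondrion (8 tested of 8), 1 rose and 1 fell under AMB: SCO2, the paralogue of SCO1, by 0.38 (SE 0.075, adjusted p = 0.0030), and CMC2, which is needed for assembly of the oxidase, by -0.48 (SE 0.150, adjusted p = 0.0258). Under AMB-LF 0 rose and 4 fell, MRS3 (-1.13, adjusted p = 0.00329), a mitochondrial carrier known for iron, CMC2 (-0.53, adjusted p = 0.0355) and COX23 (-0.52, adjusted p = 0.00347) the most. Like CTR1, MRS3 was at 61.7 ± 6.28 CPM (SD, n = 3) in AMB, 61.9 ± 3.76 in its control and 70.1 ± 8.97 in AMB-LF, but at 157 ± 51.6 in the control for AMB-LF. The median of the list was -0.14 under AMB and -0.34 under AMB-LF.

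Of the genes for low affinity uptake, the other metalloreductases and further Mac1p targets (10 tested of 10), 5 rose and 1 fell under AMB. The largest changes were in IRC7 (0.81, adjusted p = 0.00884), a Mac1p target with a role in cysteine metabolism, and in the siderophore-iron reductases FRE2 (0.69, adjusted p = 0.00942) and FRE3 (0.58, adjusted p = 0.000746). Under AMB-LF 1 rose and 2 fell: IRC7 rose by 1.75 (SE 0.216, adjusted p = 0.000136), while the low affinity iron, copper and zinc transporter FET4 (-1.65, SE 0.185, adjusted p = 6.49e-05) and the Mac1p-dependent REE1 (-0.43, SE 0.137, adjusted p = 0.0355) fell. Thus IRC7 moved opposite to CTR1 and FRE1 under AMB-LF. FET4 was at 142 ± 36.1 CPM in AMB-LF and 142 ± 11.6 in AMB, with 159 ± 14.9 in the control for AMB and 416 ± 58.7 in the control for AMB-LF. The medians of this list were 0.21 and -0.04.

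In the copper-dependent iron uptake list (7 tested of 7), 2 rose under AMB and 0 fell. They were FET3, the multicopper oxidase that receives copper through Ccc2p (0.60, SE 0.130, adjusted p = 0.00438), and the iron regulator AFT1 (0.34, SE 0.078, adjusted p = 0.00609). Under AMB-LF FET3 rose too (0.69, SE 0.141, adjusted p = 0.00408) and FTH1, a vacuolar iron permease, fell (-0.33, SE 0.072, adjusted p = 0.00604). FET3 was at 2536 ± 109 CPM in AMB, 2740 ± 179 in AMB-LF, and 1700 ± 182 and 1643 ± 222 in their controls, so here the controls were alike and the difference between the responses was 0.09 (SE 0.206, adjusted p = 0.796). The medians were 0.23 under AMB and 0.15 under AMB-LF.

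Of the copper storage genes and copper enzymes (5 tested of 7), SOD1, the copper-zinc superoxide dismutase, rose under both treatments, by 0.49 (SE 0.139, adjusted p = 0.0178) under AMB and by 0.50 (SE 0.154, adjusted p = 0.0308) under AMB-LF. CCS1, the chaperone that supplies it, fell under AMB-LF (-0.20, SE 0.071, adjusted p = 0.0489), and no other gene of the list passed in either comparison. The medians were 0.13 and 0.03. The metallothionein genes CUP1-1 and CUP1-2, identical copies that share their reads, had 0 to 3 counts in every library and were not tested. FET4, FRE2, FRE3, AFT1 and SOD1 are among the genes the study itself selected from these libraries, so their directions are not independent evidence. Under LF 0 genes of any of the 4 lists were called.

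Over the 12 HiSeq libraries, the genes whose log2 CPM was most like that of PIC2 were YFR006W (Pearson r = 0.982), GUT2 (0.977) and GLC3 (0.974). Most like ATX1 were YSY6 (0.977), MDE1 (0.970) and DAD2 (0.969), and most like SCO1 were YET1 (0.973), TWF1 (0.972) and LSC2 (0.971). These 3 copper genes had the largest absolute log2 fold changes under AMB, that of ATX1 without passing the test, and the correlations are descriptions over libraries that share groups and lanes. Among the 10 themselves the highest r was that of CTR1 with FRE1 (0.964), and PIC2 was closest to CTR2 (0.898) and SCO1 (0.881). Of all genes tested, the one most like CTR1 (0.967) and most like FRE1 (0.964) was DOA1, which is in none of the copper lists.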

How the data were processed

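The deposited counts are raw counts of reads per gene in 18 libraries, which the authors made by mapping to the R64 genome. Reads on coding sequences were counted on either strand, with HTSeq 0.5.3p9 for the HiSeq libraries. For LF and its control, the study states that other versions of the mapping and counting tools were used. Further deposited tables hold group averages on the log2 CPM scale and the authors' own fold changes and p-values; neither was used. The 685 genes without an annotated coding sequence held 0.302% of the counts. Genes with at least 7 CPM in 6 HiSeq (5456 genes) or 3 NextSeq libraries (5445) were tested with edgeR 4.0.16 (quasi-likelihood test, TMM factors, R 4.3.3) and Benjamini-Hochberg adjustment over all of them; calls were made at 0.05. One fit held the 12 HiSeq libraries with a lane term, and another the 6 NextSeq libraries. The scripts were tested on simulated data. Replicates were labelled biological triplicates.

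Pairing by replicate number was checked with Pearson's r, over genes, between libraries of the same number after each group's mean was subtracted. It was 0.882, 0.77 and 0.945 for LF, and the study assigns these replicates to days, so the numbers pair the libraries.

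All 10 genes are named. Of each other list at most the 3 called genes with the largest change per comparison are named, and likeness is given for the 3 members with the largest change under AMB. Correlations among the 10, the gene most like CTR1 and FRE1, and the sequences shown were chosen after values were seen. The 10 genes and the lists were chosen with earlier results of these data known. Upstream windows were cut from the R64 genome at coding starts, since no promoter table was used; the window of 500 bases was added after seeing the data. Alternatives were DESeq2 1.42.0, edgeR's likelihood ratio test, RLE factors, library size only, no filter, filterByExpr, no lane term, the replicate block, each library left out, only the 6 libraries of a comparison, exchanged control labels, all untreated libraries as 1 control and, added after seeing the data, single lanes.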

Additional observations from a re-analysis of the deposited data

Results flagged for a closer look

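The response to AMB-LF differed from the response to AMB, by the test of the difference itself (the quasi-likelihood test, adjusted over all genes), for 3 of the 10 genes: CTR1 (-1.18 on the log2 scale), SCO1 (-0.5228) and PIC2 (-0.8682). Of all genes tested, 7.46% had a lower and 10.1% a higher response to AMB-LF. Among the other copper genes it differed for SCO2 (-0.4383), MRS3 (-1.103), FET4 (-1.551) and REE1 (-0.664). All 7 of these genes were called higher in the untreated group of AMB-LF than in that of AMB, and none of the 7 was called between AMB-LF and AMB. This is not separate evidence, because the difference is by construction the treated comparison minus the control comparison. Between AMB-LF and AMB, 0.33% of all genes were called. The part of lane and of the identity of the control groups in these differences was not tested beyond the values given.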

How the results depend on the processing

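Of 1280 values of the 10 genes over all comparisons and alternatives, 1132 kept their direction and side of the threshold, 45 lost a call and 25 gained one. In 78 the sign changed, in 69 of them without a call in either fit. Under AMB, a single lane leaves 1 group with 1 library, so values are given without calls. In lanes 1 and 2 alone they were 0.33 and 0.38 for CTR2, 0.51 and 0.41 for SCO1, and 0.95 and 0.69 for PIC2. For FRE1 they were 0.05 and -0.54. Under AMB-LF, leaving out 1 library gave 1 to 4 calls, with 1 (CTR1) without AMB-LF replicate 1, and all 6 untreated libraries as 1 control gave 0. The cause was not tested. For the difference between responses, leaving out 1 library gave 0 to 5 calls. Exchanged control labels gave 5, all higher, beside 375 genes higher and 716 lower among all 5456 tested. Calls over all genes are not given here for the fits with 1 library left out. Between the controls it was 1 to 7 calls with 1 library left out, and 1 without replicate 1 of the control for AMB. With control labels exchanged, SCO1 turned to -0.016 under AMB, SCO1 and PIC2 to 0.4082 and 0.6556 under AMB-LF, and the difference between responses to 1.3009 for CTR1, 0.2986 for CTR2, 1.1892 for FRE1, 0.5774 for CCC2, 0.4242 for SCO1 and 0.4905 for PIC2. CCC2 (AMB and AMB-LF) and the differences for CTR3, FRE7 and ATX1 turned too, without a call in either fit. That exchange only turns the sign of the comparison between controls, so it was not counted there.

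For AMB and AMB-LF the replicate numbers did not pair the libraries (r = -0.274, -0.512 and -0.285 for AMB, -0.331, -0.109 and 0.04 for AMB-LF). With the replicate block, 0 of the 10 were called for the difference between responses, 4 under AMB (ATX1 added, lower), 2 under AMB-LF (FRE7 lost) and 5 between the controls (CTR2 lost). Of all genes the block called 0.0183% higher and 0.0916% lower for the difference, 15.5% and 14.4% under AMB, 9.92% and 8.72% under AMB-LF, and 7.57% and 12.4% between the controls. For LF, where the numbers pair the libraries, the block changed no call. With 3 libraries per group and 56 to 128 counts per HiSeq library, CTR3 was the least precisely measured of the 10 by counting.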
